A study of Mus musculus with 3 samples.

Results

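The genes described here are 10 genes that mark macrophages resident in tissues or encode the chains of complement C1q, namely *C1qa*, *C1qb*, *C1qc*, *Cd68*, *Adgre1*, *Mrc1*, *Cd163*, *Lyve1*, *Siglec1* and *Spic*. They were chosen by symbol from a table of 26970 genes, and all 10 were found. The libraries came from mandibular condyles of mice aged 4 months, dissected with cartilage and subchondral bone still joined. The 3 groups were wild-type (WT) mice, heterozygous *Dspp*+/- mice and homozygous *Dspp*-/- mice, all on a C57BL/6 background, and the knockout is global, so every cell type of the joint carries it. Each genotype has 1 library, made from tissue pooled from 3 animals for WT and for *Dspp*+/-, and the number of animals behind *Dspp*-/- is not given in the sources used here. Without replicates the genotypes could not be tested against each other, and each difference below is one between single libraries. The *Dspp* gene itself was not analysed here, so the genotypes were not checked against it.

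Macrophages that live in bone marrow and joint tissue engulf dying cells, debris and old red cells. In the marrow they also sit at the centre of erythroblastic islands, where they take up the nuclei that maturing red cells expel. Complement C1q is the recognition molecule of the classical complement pathway. It binds immune complexes and dying cells, is assembled from A, B and C chains, and is made mainly by macrophages and dendritic cells rather than by liver. In bulk tissue, fewer cells of a type and less RNA per cell cannot be told apart.

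The 3 chain genes lie side by side on the minus strand of chromosome 4, at 136607440 to 136613498 for *C1qb*, 136617115 to 136620376 for *C1qc* and 136623228 to 136626114 for *C1qa*, in the coordinates of the authors' table. These are not GRCm38 coordinates, since GENCODE M21 gives identical ends for only 589 genes of the table. Sequence before the start of *C1qb* and of *C1qc* is shown because the ratio between these neighbouring genes had overlapping intervals in the 3 libraries. Both come from RefSeq on GRCm38.p6, read on the minus strand, and cover chr4:136886201-136886450 for *C1qb* and chr4:136893066-136893164 for *C1qc*, where the window stops before the longer GENCODE transcript. Capitals mark a match to GAGGAAGT on either strand, the letters bound by PU.1, an ETS factor of myeloid cells encoded by *Spi1*.

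C1qb: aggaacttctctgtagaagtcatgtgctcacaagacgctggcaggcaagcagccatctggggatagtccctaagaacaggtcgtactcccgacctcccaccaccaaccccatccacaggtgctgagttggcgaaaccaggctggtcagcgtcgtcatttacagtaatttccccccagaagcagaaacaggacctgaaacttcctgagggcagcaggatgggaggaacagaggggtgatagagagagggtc
C1qc: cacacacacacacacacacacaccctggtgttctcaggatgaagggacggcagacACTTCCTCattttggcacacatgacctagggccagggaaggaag

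The *C1qc* window holds 1 such match and the *C1qb* window none. Of 32851 RefSeq windows of 300 bases, 3.20% hold it. Promoter windows were matched for 6 of the 10 genes (*C1qb*, *C1qc*, *Cd163*, *Cd68*, *Mrc1* and *Spic*). The *Spic* window holds 0 bases before the start of its longer GENCODE transcript, so it is not sequence before that start. Among the 6, *Cd68* alone held the composite motif of an ETS factor with an interferon regulatory factor, which 2.72% of windows hold. That match lies 23 bases after the RefSeq start. None of the 6 held TGCTGAC, the half-site of MAF factors, which 4.67% hold. All motifs were searched on both strands, and the PU.1 and composite matches fall in different windows, so they do not overlap. These matches describe letters only and say nothing of binding.

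The values are FPKM, that is, fragments scaled to library size and exon length. The depth behind them was recovered as 20241576 fragments for WT, 23613622 for *Dspp*+/- and 22253160 for *Dspp*-/-. All 10 genes came back as whole fragments in every library, and together they held 5259, 6414 and 6067 fragments. None of their exons overlaps another gene in GENCODE M21, and at most 0.0852% of the 100-base sequences of any of them (*Siglec1*) occur in other genes. Intervals below are 95% Clopper-Pearson intervals of the fold, and they cover counting error only, not the spread between mice. Genome-wide comparisons kept the 13026 genes averaging 1 FPKM or more, and 9 of the 10 genes passed this filter. *Spic*, with a mean of 0.721 FPKM, did not.

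Within the WT library, *Cd68* stood highest at 50.4 FPKM, followed by *C1qb* at 33.5, *C1qa* at 30.4 and *C1qc* at 15.2. The receptor genes were lower, with 6.30 FPKM for *Mrc1*, 5.90 for *Adgre1*, 3.87 for *Cd163*, 2.28 for *Lyve1* and 1.42 for *Siglec1*, and *Spic* had 0.437 FPKM. In this order, *C1qb* and *C1qa* did not differ beyond counting error, with a ratio of 1.10 (0.989 to 1.23), and neither did *Mrc1* and *Adgre1*, with a ratio of 1.07 (0.944 to 1.21). All other neighbours were apart. In *Dspp*+/- the order changed at the top, where *C1qb* passed *Cd68* with a ratio of 1.10 (1.01 to 1.20). *Adgre1* and *Mrc1* again did not differ there (1.10, 0.995 to 1.21), nor did *Cd163* and *Lyve1* (1.15, 0.984 to 1.34). In *Dspp*-/- the order was that of WT, and *Mrc1* and *Adgre1* were the 1 pair of neighbours that did not differ (1.08, 0.973 to 1.19).

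**Figure D1:**
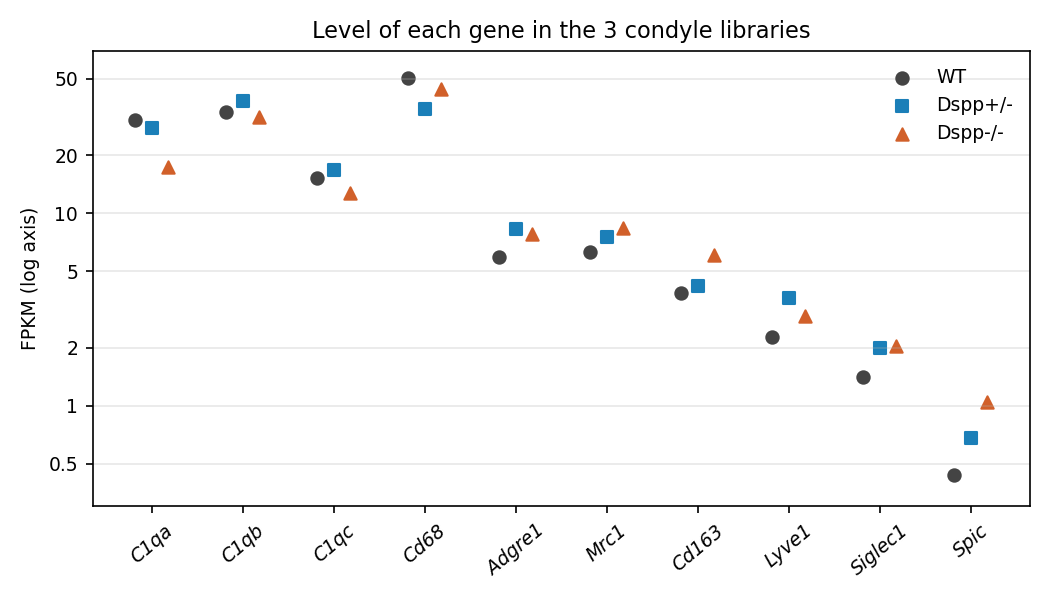
FPKM on a log axis for each of the 10 genes, with 1 point per library for WT, *Dspp*+/- and *Dspp*-/-. *C1qa* in *Dspp*-/- (17.5 FPKM) sits well under its other 2 points (30.4 and 27.7 FPKM), while *Spic* is lowest in WT (0.437 FPKM) and highest in *Dspp*-/- (1.04 FPKM).

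No gene of the 9 was 2-fold higher or lower than in WT on the log2(FPKM + 1) scale in either mutant library. Over all 13026 genes, 4.88% were at least 2-fold higher and 2.86% at least 2-fold lower in *Dspp*+/-, and 4.05% and 1.37% in *Dspp*-/-. Between the mutant libraries, none of the 9 passed 2-fold either, against 0.852% of all genes higher and 0.798% lower in *Dspp*-/- than in *Dspp*+/-. The 9 genes had a median log2 ratio to WT of 0.18 for *Dspp*+/- and 0.26 for *Dspp*-/-, beside 0.058 and 0.0070 over all genes. The lowest log2 ratio was -0.53 (*Cd68*) and the highest 0.50 (*Lyve1*) in *Dspp*+/-, with -0.77 (*C1qa*) and 0.54 (*Cd163*) as the ends in *Dspp*-/-. Both comparisons use the same WT library, and all counts of genes past 2-fold below use the log2(FPKM + 1) scale. A mean of at least 5 FPKM, which leaves 6 genes, turned the *Dspp*-/- median to -0.13.

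Smaller differences were still larger than counting error for most of the genes. In *Dspp*+/- the interval of the fold lay above 1 for 5 of the 9 genes (*C1qb*, *Adgre1*, *Mrc1*, *Lyve1* and *Siglec1*), where it did so for 39.3% of 12710 genes with whole fragments. It lay below 1 for *Cd68* alone, against 28.4% of those genes. In *Dspp*-/- it lay above 1 for 5 genes (*Adgre1*, *Mrc1*, *Cd163*, *Lyve1* and *Siglec1*, against 34.0%) and below 1 for 3 (*C1qa*, *C1qc* and *Cd68*, against 33.6%). Between *Dspp*-/- and *Dspp*+/-, it lay above 1 for *Cd68*, *Mrc1* and *Cd163* (25.4% of genes) and below 1 for *C1qa*, *C1qb*, *C1qc* and *Lyve1* (34.5% of genes). With counts this deep such intervals leave out 1 for most genes, and these shares are read against that. The intervals take the scaling as given, while scaling without mitochondrial genes raised log2 ratios to WT by 0.13 in *Dspp*+/- and 0.12 in *Dspp*-/-. Whether an interval that ends near 1 holds 1 thus depends on the scaling.

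**Figure D2:**
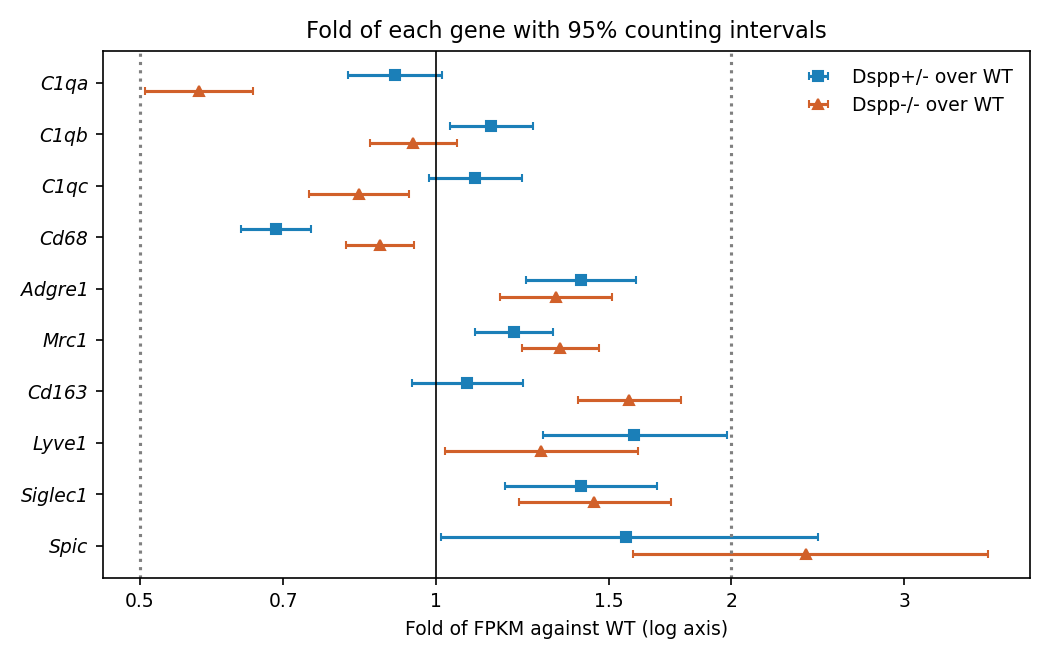
Fold of FPKM in each mutant library over WT, on a log axis, with 95% counting intervals and dotted lines at 0.5 and 2. The C1q genes and *Cd68* lie near or below 1, and the 6 other genes lie above 1 in both mutant libraries, with *Spic* in *Dspp*-/- (2.38) past the upper line.

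Among the C1q chain genes, the A chain stood apart from the B and C chains. *C1qa*, encoding the A chain, had 30.4 FPKM in WT against 27.7 in *Dspp*+/- and 17.5 in *Dspp*-/-. Its fold over WT was 0.909 (0.815 to 1.01) for *Dspp*+/- and 0.575 (0.506 to 0.652) for *Dspp*-/-, so only the homozygous library was below WT by more than counting error. *C1qb*, encoding the B chain, had 33.5, 38.2 and 31.8 FPKM in the same order. Its fold was 1.14 (1.03 to 1.26) for *Dspp*+/- and 0.949 (0.857 to 1.05) for *Dspp*-/-. The first is above WT by little more than counting error and the second does not differ from it at this depth, and without mitochondrial genes in the scaling its log2 ratio in *Dspp*-/- turned from -0.073 to 0.039. *C1qc*, encoding the C chain, had 15.2, 16.7 and 12.8 FPKM, with folds of 1.10 (0.985 to 1.22) and 0.836 (0.743 to 0.941). Without mitochondrial genes in the scaling, its log2 ratio in *Dspp*-/- went from -0.24 to -0.13. All 3 chains were thus lower in *Dspp*-/- than in *Dspp*+/-, at 0.632 (0.557 to 0.716) for *C1qa*, 0.833 (0.757 to 0.916) for *C1qb* and 0.762 (0.682 to 0.852) for *C1qc*. Summed, the chains had 79.2 FPKM in WT, with 82.6 in *Dspp*+/- and 62.1 in *Dspp*-/-.

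Ratios between genes of the same library do not depend on how the libraries are scaled. The ratio of *C1qb* to *C1qa* was 1.10 (0.989 to 1.23) in WT, 1.38 (1.25 to 1.52) for *Dspp*+/- and 1.82 (1.61 to 2.05) for *Dspp*-/-, and the 3 intervals do not overlap. The ratio of *C1qc* to *C1qa* was 0.501 (0.447 to 0.561), 0.604 (0.544 to 0.671) and 0.729 (0.640 to 0.831). It was higher in *Dspp*-/- than in WT by more than counting error. The interval of *Dspp*+/- overlaps both others, and overlap alone does not show that a difference is absent. The ratio changed by 1.21 times from WT to *Dspp*+/- and by 1.21 times from *Dspp*+/- to *Dspp*-/-. The ratio of *C1qc* to *C1qb* was 0.455 (0.408 to 0.508), 0.438 (0.398 to 0.482) and 0.401 (0.359 to 0.448), and its 3 intervals overlap. With 1 library per genotype, whether this shift of the A chain recurs between animals was not tested.

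**Figure D3:**
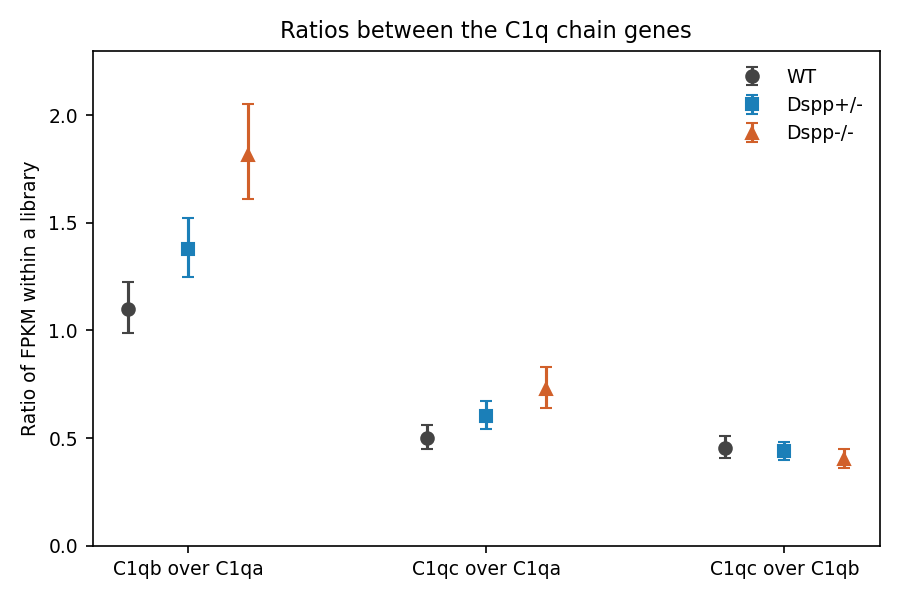
Ratios of FPKM between the C1q chain genes within each library, with 95% counting intervals. *C1qb* over *C1qa* stands at 1.10, 1.38 and 1.82 in WT, *Dspp*+/- and *Dspp*-/-, while *C1qc* over *C1qb* stays between 0.401 and 0.455.

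By likeness over the 3 libraries, the genes averaging 5 FPKM or more whose log2 ratios came nearest to the mean of the 3 chains (0.059 in *Dspp*+/- and -0.36 in *Dspp*-/-) were *Dctn1*, *Spg20*, *Trmt1*, *Psmb10* and *Ube2g2*. Their distances were from 0.0026 to 0.020 on the log2 scale, among 7133 genes. Likeness over 3 libraries rests on 2 ratios.

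*Cd68* and *Adgre1*, both used to find macrophages, differed in direction. *Cd68* encodes a lysosomal glycoprotein of macrophages that osteoclasts also make. It had 50.4 FPKM in WT against 34.7 in *Dspp*+/- and 44.3 in *Dspp*-/-, with folds of 0.688 (0.633 to 0.748) and 0.878 (0.811 to 0.950). It was lowest in the heterozygous library and lower than WT in both. Without mitochondrial genes in the scaling, its log2 ratio to WT went from -0.53 to -0.40 in *Dspp*+/- and from -0.184 to -0.071 in *Dspp*-/-. Both moved out of the counting interval towards WT, so the size of the *Dspp*-/- difference depends on the scaling. The osteoclast list differed in the same direction, with a summed level of 2369 FPKM in WT, with 879 in *Dspp*+/- and 1401 in *Dspp*-/-, and all 12 of its genes were lower in both mutant libraries. The part of osteoclasts in the *Cd68* difference was not tested. *Adgre1*, which encodes an adhesion receptor widely used to stain mouse macrophages, had 5.90 FPKM in WT against 8.30 in *Dspp*+/- and 7.83 in *Dspp*-/-. Its folds were 1.41 (1.24 to 1.60) and 1.33 (1.16 to 1.51), and the mutant libraries did not differ beyond counting error (0.942, 0.840 to 1.06). Mouse eosinophils also carry this receptor. Of the 5 eosinophil genes listed, 3 passed the filter, and the list summed to 5.17 FPKM in WT, with 101 in *Dspp*+/- and 85.4 in *Dspp*-/-. *Epx*, their peroxidase, had 0.614 FPKM in WT against 15.6 in *Dspp*+/- and 16.1 in *Dspp*-/-. Their part in the *Adgre1* difference was not tested.

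Of the scavenger receptor genes, *Mrc1* and *Lyve1* were higher than WT by more than counting error in both mutant libraries, and *Cd163* in *Dspp*-/-. *Mrc1*, the mannose receptor gene that sinusoidal endothelium also expresses, had 6.30 FPKM in WT, with 7.56 in *Dspp*+/- and 8.43 in *Dspp*-/-. Its folds were 1.20 (1.10 to 1.32) and 1.34 (1.22 to 1.47), and the homozygous library was the highest. *Cd163*, which encodes the receptor that clears haemoglobin bound to haptoglobin, had 3.87, 4.17 and 6.10 FPKM. Its fold was 1.08 (0.947 to 1.23) for *Dspp*+/- and 1.57 (1.40 to 1.78) for *Dspp*-/-, so only the homozygous library was above WT by more than counting error. *Lyve1*, a hyaluronan receptor gene of lymphatic endothelium and of macrophages along vessels, had 2.28, 3.64 and 2.93 FPKM. Its folds were 1.59 (1.29 to 1.98) and 1.2802 (1.02 to 1.61), and it was highest in the heterozygous library.

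Genes of the endothelia that share these receptors were measured beside them. Of 7 lymphatic and sinusoidal endothelial genes, 5 passed the filter. *Mmrn1* was at least 2-fold higher in both mutant libraries (1.21 FPKM in WT against 3.85 in *Dspp*+/- and 4.61 in *Dspp*-/-), and *Ccl21a* in *Dspp*-/- alone (3.12, 6.62 and 8.52 FPKM). *Prox1*, the transcription factor that defines lymphatic endothelium, was low in all 3 libraries, at 0.194 FPKM in WT, with 0.288 in *Dspp*+/- and 0.343 in *Dspp*-/-. *Stab2*, a receptor of sinusoids, had 0.395, 1.79 and 1.67 FPKM. *Pdpn*, podoplanin, the most abundant of the list, was lower in both mutant libraries, with 9.33, 5.55 and 7.37 FPKM and folds of 0.595 (0.502 to 0.704) and 0.790 (0.674 to 0.926). The list, *Pdpn* included, summed to 17.8, 22.1 and 26.8 FPKM. Of the 5 genes that passed, 4 were higher and 1 lower in each mutant library, with median log2 ratios of 0.89 in *Dspp*+/- and 0.94 in *Dspp*-/-. The part of these endothelial genes in the *Lyve1* and *Mrc1* differences was not tested. None of the 10 general endothelial genes passed 2-fold, and their median log2 ratio was 0.10 in *Dspp*+/- and 0.11 in *Dspp*-/-.

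*Siglec1* and *Spic*, linked to macrophages that tend red cells, were the least abundant of the 10 genes and were higher in both mutant libraries. *Siglec1* encodes CD169, a sialic acid receptor of island macrophages, and had 1.42 FPKM in WT against 1.99 in *Dspp*+/- and 2.06 in *Dspp*-/-. Its folds were 1.40 (1.18 to 1.68) and 1.45 (1.21 to 1.74), and the mutant libraries did not differ from each other beyond counting error (1.03, 0.884 to 1.21). *Spic* encodes an ETS factor that heme induces in red pulp and marrow macrophages, and that B cells also express. It had 0.437 FPKM from 34 fragments in WT, 0.684 FPKM from 62 fragments in *Dspp*+/- and 1.04 FPKM from 89 fragments in *Dspp*-/-. Its fold was 1.56 (1.01 to 2.45) for *Dspp*+/- and 2.38 (1.59 to 3.65) for *Dspp*-/-, the largest fold among the 10 genes in either library, and its intervals were the widest in proportion. On the log2(FPKM + 1) scale, which understates changes of low genes, this was 0.51, under the 2-fold threshold. The B cell list summed to 17.1 FPKM in WT, with 61.7 in *Dspp*+/- and 43.5 in *Dspp*-/-, and its part in the *Spic* difference was not tested.

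Set against *Cd68* of the same library, every other gene stood higher in *Dspp*+/- than in WT, with the relative level changed by 1.32 times for *C1qa*, 1.66 for *C1qb*, 2.04 for *Adgre1* and for *Siglec1*, and 2.32 for *Lyve1*. In *Dspp*-/- the C1q genes were at 0.655 (*C1qa*), 1.08 (*C1qb*) and 0.953 (*C1qc*) times their WT ratio, while *Adgre1* was at 1.51 and *Spic* at 2.71 times. Against *Csf1r*, the receptor gene for the growth factor that macrophages and osteoclasts need, the ratio of *C1qa* was 0.704 (0.648 to 0.765) in WT, 1.10 (1.01 to 1.20) for *Dspp*+/- and 0.527 (0.475 to 0.583) for *Dspp*-/-. *C1qa* was the exception, as every other gene stood above its WT ratio to *Csf1r* in both mutant libraries. *C1qb* was at 1.96 times that ratio in *Dspp*+/- and 1.24 in *Dspp*-/-, *C1qc* at 1.89 and 1.09, and *Adgre1* at 2.42 and 1.73. For *C1qc* the intervals of WT and *Dspp*-/- overlap. Both reference genes are shared with osteoclasts and were lower than in WT, *Csf1r* at 43.2 FPKM in WT against 25.1 in *Dspp*+/- and 33.2 in *Dspp*-/-.

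Of 20 further macrophage genes, 18 passed the filter, and 3 were at least 2-fold higher in each mutant library and none lower. These were *Lyz2*, the lysozyme gene and the most abundant of the list (207 FPKM in WT, with 588 in *Dspp*+/- and 558 in *Dspp*-/-), *Mpeg1*, a pore-forming protein of phagocytes (13.3, 39.0 and 28.9 FPKM), and *Fcgr3*, an Fc receptor (5.44, 15.8 and 16.9 FPKM). Neutrophils or monocytes also express them. For the 18 genes the median log2 ratio was 0.0046 in *Dspp*+/- and -0.042 in *Dspp*-/-. Among transcription factors of macrophages, *Spi1* did not differ from WT beyond counting error and *Maf* was lower in both mutant libraries. *Spi1* had 16.3 FPKM in WT against 17.8 in *Dspp*+/- and 15.7 in *Dspp*-/-, with both intervals holding 1 (0.997 to 1.19 and 0.878 to 1.06). *Maf*, a MAF factor, had 17.4, 12.8 and 14.4 FPKM, with folds of 0.736 (0.697 to 0.777) and 0.831 (0.788 to 0.876). Chondrocytes also express *Maf*.

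Of 12 genes of resident and perivascular macrophages, 7 passed, and *Fcna*, a ficolin gene of marrow and spleen macrophages, was the 1 past 2-fold, with 0.863 FPKM in WT, with 4.41 in *Dspp*+/- and 3.50 in *Dspp*-/-. Its folds were 5.11 (3.30 to 8.23) and 4.06 (2.59 to 6.60). *Gas6*, the most abundant of the list and a bridging ligand for dying cells, had 138, 130 and 105 FPKM. For the 7 genes the median log2 ratio was 0.17 in *Dspp*+/- and 0.21 in *Dspp*-/-.

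Complement genes outside C1q lay on both sides of WT. Of 31 listed, 22 passed the filter, and their median log2 ratio was 0.15 in *Dspp*+/- and 0.28 in *Dspp*-/-. In *Dspp*+/- 3 were at least 2-fold higher and 1 lower, and in *Dspp*-/- 4 were higher and none lower. *C3*, the central component, had 7.24 FPKM in WT against 30.1 in *Dspp*+/- and 28.3 in *Dspp*-/-, with folds of 4.16 (3.85 to 4.51) and 3.90 (3.60 to 4.23). *C5ar1*, the receptor for the C5a fragment, had 2.19, 5.98 and 6.26 FPKM. *Itgam*, a chain of complement receptor CR3 found on neutrophils and macrophages, had 1.41, 3.73 and 4.69 FPKM. It passed 2-fold on the log2(FPKM + 1) scale in *Dspp*-/- alone, although its fold of FPKM in *Dspp*+/- was 2.66 (2.19 to 3.23). *Cfp*, properdin, passed in *Dspp*+/- alone, with 6.74, 15.4 and 10.2 FPKM. *Cfd*, factor D, which fat cells secrete, was lower in *Dspp*+/- (8.50 FPKM) and higher in *Dspp*-/- (62.0 FPKM) than in WT (23.5 FPKM). Of the proteases that act with C1q, *C1ra* had 9.20, 9.42 and 8.97 FPKM, with both intervals holding 1 (0.913 to 1.15 and 0.867 to 1.10), and *C1s1* had 13.6, 18.6 and 16.6 FPKM.

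Heme and iron genes of macrophages were compared because *Spic*, *Cd163* and *Siglec1* belong to cells that recycle red cells. Of 13 listed, 12 passed, with a median log2 ratio of 0.34 in *Dspp*+/- and 0.25 in *Dspp*-/-. On the log2(FPKM + 1) scale 1 was past 2-fold. That gene was *Hp*, the haptoglobin gene that neutrophils also express, at 19.2 FPKM in WT, with 62.2 in *Dspp*+/- and 62.0 in *Dspp*-/-. *Hmox1*, heme oxygenase, lay just under the threshold in *Dspp*+/- with a log2 ratio of 0.999, from 6.72 FPKM in WT to 14.4, and it had 11.6 FPKM in *Dspp*-/-. *Slc40a1*, the iron exporter ferroportin, had 4.83, 9.55 and 10.4 FPKM. Others were lower than WT in both mutant libraries, namely *Ftl1*, the ferritin light chain (266, 227 and 154 FPKM, with folds of 0.851 and 0.577), and *Lrp1*, the receptor for heme bound to hemopexin (64.3, 42.2 and 47.1 FPKM, with folds of 0.657 and 0.732). *Bach1*, the heme-sensing repressor of *Spic*, had 10.01 FPKM in WT against 11.3 in *Dspp*+/- and 11.9 in *Dspp*-/-, with folds of 1.13 (1.05 to 1.22) and 1.19 (1.10 to 1.2796). *Fth1*, the most abundant of the list, had 319, 391 and 359 FPKM.

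Of 8 genes of erythroblastic islands, 7 passed. *Vcam1*, an adhesion molecule of island macrophages and of marrow stroma, was just past 2-fold in *Dspp*+/-, with 6.67 FPKM in WT, with 14.4 in *Dspp*+/- and 10.6 in *Dspp*-/-. *Epor*, the erythropoietin receptor of the erythroblasts themselves, had 0.695, 5.92 and 3.48 FPKM and passed in both. *Maea*, an attachment protein and the most abundant of the list, had 31.9, 30.2 and 28.3 FPKM. For the 7 genes the median log2 ratio was -0.073 in *Dspp*+/- and -0.15 in *Dspp*-/-.

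**Figure D4:**
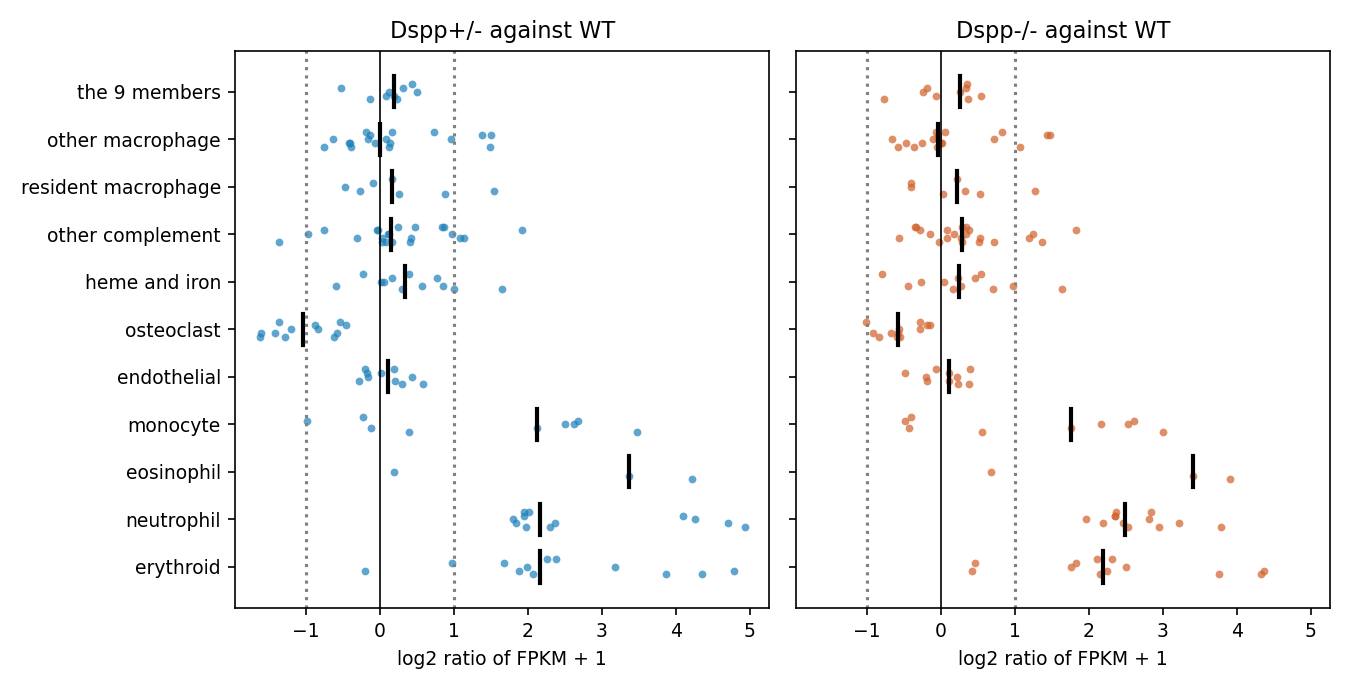
Log2 ratio of FPKM + 1 to WT for each gene of a list with a mean of at least 1 FPKM (points), with the list's median (bar) and dotted lines at 1 and -1, in *Dspp*+/- and in *Dspp*-/-. The 9 macrophage and C1q genes all lie between the dotted lines, the osteoclast list lies below 0, and the monocyte, eosinophil, neutrophil and erythroid medians lie beyond 1.

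Markers of several other cell types differed further from WT than the 10 genes. All 12 neutrophil genes and 10 of 12 erythroid genes were at least 2-fold higher in each mutant library, with median log2 ratios of 2.16 and 2.49 for neutrophils and 2.16 and 2.20 for red cells. Of 9 monocyte genes that passed, 5 were at least 2-fold higher in each, among them *Ly6c2* (1.97 FPKM in WT against 31.9 in *Dspp*+/- and 22.7 in *Dspp*-/-) and *Ccr2* (1.54, 10.1 and 7.59 FPKM), both of inflammatory monocytes. *Chil3* and *Csf3r*, also among the 5, are shared with neutrophils. Of the 9, 3 were lower than WT in both mutant libraries, namely *Vcan* (8.63, 3.84 and 5.89 FPKM), *Fn1*, the most abundant of the list (528, 450 and 399.7 FPKM), and *Ace* (12.1, 11.1 and 8.74 FPKM). The paper reports FN-1 protein in condylar cartilage, so *Fn1* is not particular to monocytes in this tissue. Of 6 B cell genes, 5 were at least 2-fold higher in each. Most of the tissue's own markers were lower, with 7 of 8 osteoblast genes and 4 of 7 chondrocyte genes at least 2-fold lower in *Dspp*+/-, and 2 of 8 and 5 of 7 in *Dspp*-/-. *Prg4*, the lubricin gene of the cartilage surface, was the 1 chondrocyte gene higher in both, with 43.8, 73.4 and 57.2 FPKM and folds of 1.68 (1.61 to 1.74) and 1.31 (1.25 to 1.36). *Col2a1* and *Col1a1*, which define cartilage and bone, were abundant in all 3 libraries but much lower in both mutant ones. *Col2a1* had 761 FPKM in WT against 94.2 in *Dspp*+/- and 308 in *Dspp*-/-, with folds of 0.124 and 0.405. *Col1a1* had 6675, 1719 and 3610 FPKM, with folds of 0.257 and 0.541. The mitochondrial share of summed FPKM was 25.02% for WT, 36.9% for *Dspp*+/- and 37.3% for *Dspp*-/-, and scaling without them raised log2 ratios to WT by 0.13 and 0.12. *Xist*, an RNA of female cells, had 0.0055 FPKM in WT, with 28.5 in *Dspp*+/- and 26.5 in *Dspp*-/-, while 4 genes of the Y chromosome summed to 36.6, 19.0 and 25.9 FPKM. RNA of male cells was thus present in all 3 libraries and RNA of female cells at these levels in the mutant libraries alone, so the sex make-up of the pools and the genotype cannot be told apart. The part of these shifts in the differences of the 10 genes was not tested.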

How the data were processed

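The authors deposited 1 table with a value per gene for each of 3 libraries of condyle RNA (poly(A)-selected, paired reads of 150 bases), in a unit the table does not name. The deposited values were read as FPKM because FPKM times merged exon length (GENCODE M21) gave whole fragments, within a tolerance of 0.05 for low counts, in all libraries for 98.2% of the 26652 genes with a length. The submitters' processing notes name FastQC 0.11.5, HISAT2 2.1.0, StringTie 1.3.3b, DESeq 1.28.0 and the build hg38, a human build, while the identifiers are those of mouse genes, and how each tool was used is not given in the sources used here. The labels mention triplicates, but each genotype has 1 column. From FPKM, log2 ratios with a pseudocount of 1 FPKM were computed for genes averaging 1 FPKM or more, and a gene was counted as changed at 2-fold. The study's Kruskal-Wallis test needs replicates and was not used. Fold intervals come from recovered fragments without a floor. Where WT held at most 3 fragments, the fold alone was also set against a floor of 3 fragments. Recovery of depth and fragments and the 2-fold rule were tested on simulated data, while the intervals and the ratios within a library were not.

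The genes, marker lists and tests were chosen with earlier results of these data known. All 10 genes are named. Of the lists for complement, macrophage, resident macrophage, heme and iron, and erythroblastic island genes, up to 6 genes past 2-fold in either mutant library and the most abundant gene are named, together with *Csf1r*, *Spi1*, *Maf* and *Bach1*. Some genes that this rule names are not reported here. Genes of other lists, *Stab2*, *Prox1*, *C1ra*, *C1s1*, *Hmox1*, *Slc40a1*, *Ftl1* and *Lrp1* were named after their values were seen. *Mbl2*, *Marco* and *Icam4* of the lists were not analysed here. In addition, 12 processing alternatives were tried, with 1 more added after seeing the data. Intervals used scipy 1.17.1, tables pandas 2.3.3 with numpy 2.4.6, and plots matplotlib 3.10.9, under Python 3.11.15.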

Additional observations from a re-analysis of the deposited data

Results flagged for a closer look

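*C1qb* and *C1qc* lay on opposite sides of WT in the mutant libraries. For *C1qb* the log2 ratio to WT was 0.18 in the heterozygous library and -0.073 in the homozygous library. For *C1qc* it was 0.13 and -0.24 in the same order. With 1 library per genotype these differences were not tested. The interval of the fold holds 1 for *C1qb* in *Dspp*-/- and for *C1qc* in *Dspp*+/-.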

How the results depend on the processing

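No paired analysis was possible because each genotype has 1 library. Of 210 ratios of single genes under an alternative setting, 199 stayed within the counting interval of the reported value and 1 changed sign (*C1qb* in *Dspp*-/-). Of the 9 genes none passed the threshold under any scaling, pseudocount or filter taken alone. At a threshold of 1.5-fold *C1qa* alone was lower in *Dspp*-/-, which gives 1 gene against WT and 1 against *Dspp*+/-. With a pseudocount of 0.1 and no filter together, 1 gene was higher in *Dspp*-/- than in WT (*Spic*). The median of the 9 genes in *Dspp*-/- turned to -0.13 among genes averaging 5 FPKM or more, which leaves out the 3 lower receptor genes. From 0.26 it came to 0.12 with a pseudocount of 5 and to 0.13 without *Cd68*, *Mrc1* and *Lyve1*. The *Dspp*+/- median, 0.18, came to 0.31 without mitochondrial genes in the scaling and to 0.12 with median-ratio scaling, and that between the mutant libraries, -0.076, ranged from -0.17 to -0.020. Over all genes, 636 were higher and 373 lower in *Dspp*+/-, and 527 and 179 in *Dspp*-/-. These became 971 and 605, and 836 and 363, with a pseudocount of 0.1, and 185 and 156, and 136 and 45, with a pseudocount of 5. Among genes averaging 5 FPKM or more, 281 were higher in *Dspp*+/-, and 228 were higher and 110 lower in *Dspp*-/-. At 1.5-fold they were 1501 and 1166, and 1152 and 1070, and at 4-fold 124 and 24, and 103 and 6. A pseudocount of 0.1 with no filter gave 3036 and 2064, and 2749 and 1929. Between the mutant libraries, 111 genes were higher and 104 lower in *Dspp*-/-, which became 223 and 214 with a pseudocount of 0.1, 36 and 36 with 5, 172 and 170 with no filter, 57 and 52 at a mean of 5 FPKM or more, 441 and 563 at 1.5-fold, 15 and 13 at 4-fold, and 1665 and 1877 with a pseudocount of 0.1 and no filter. Depth limits *Spic* most, with 34 fragments in WT.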

Other observations

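*Cd5l*, a secreted protein of tissue macrophages, was chosen after its values were seen and averaged under 1 FPKM. The WT library held 0 of its fragments, the heterozygous library 83 and the homozygous library 25. Set against a floor of 3 fragments in place of the 0 in WT, its fold was 23.7 for *Dspp*+/- and 7.58 for *Dspp*-/-. The counting interval used the 0 fragments themselves and began lower, at 18.9 and 5.72, so these folds are not lower bounds. *Folr2*, a receptor of perivascular macrophages, had 17, 17 and 11 fragments in WT, *Dspp*+/- and *Dspp*-/-, and *Timd4*, a receptor for dying cells, had 8, 24 and 18. Among dendritic cell genes, 2 of the 5 listed passed the filter, with a median log2 ratio of 0.23 for *Dspp*+/- and 0.41 for *Dspp*-/-. The more abundant, *Zbtb46*, had 2.36, 2.16 and 2.43 FPKM. *Clu*, the complement inhibitor clusterin, was higher in *Dspp*+/- (66.5 FPKM) and lower in *Dspp*-/- (28.4 FPKM) than in WT (36.02 FPKM). *C4b*, of the classical pathway, had 2.50, 5.24 and 3.43 FPKM. *Folr2*, *Timd4*, *Zbtb46*, *Clu* and *C4b* were also named after their values were seen.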
